A study of Mus musculus with 2 samples.

Results

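The 36 genes described here are interferon-stimulated genes (ISGs), those that type I interferon switches on in most cell types. They were chosen by symbol from the 27998 genes counted in each of 2 single-cell libraries, and all 36 had at least 1 UMI (unique molecular identifier, the tag that marks 1 captured transcript) in each library. The libraries held viable CD45+ immune cells sorted from tumours of MC38, a mouse colon carcinoma line grown intradermally in C57BL/6J mice at 4 sites per mouse. After 7 days of growth the tumours of both groups were injected. The control group received a control whose nature the labels do not state. The other group received an antibody against PD-1, an inhibitory receptor of T cells. For both groups the dose entry is 200 µg each day for each mouse, over 3 days of treatment. The tumours were taken on day 10. There was 1 library per group, and the sources used here do not give the sex, the age or the number of the mice behind it. There is therefore no replicate check: every difference is between these 2 libraries, and no test was possible. Bracketed 95% intervals of levels and ratios cover counting error only. Those of shares of cells and of cell-to-cell spread cover only the draw of cells within a library.

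Type I interferons signal through the receptor Ifnar1/Ifnar2 and the kinases Jak1 and Tyk2 to a complex that contains Stat2 and Irf9 and binds interferon-stimulated response elements in promoters. The induced genes include effectors that block viral RNA or proteins (the Ifit and Oas families, Mx1, Rsad2, Isg15), sensors of foreign nucleic acid (Ddx58, Ifih1, Dhx58, Zbp1) and regulators that extend or stop the response (Irf7, Stat2, Usp18). In tumours, type I interferon acts on dendritic cells and T cells, and interferon gamma from lymphocytes induces part of the same genes, so a level of these genes does not name the interferon behind it.

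To see in how many of these genes the core of this response element occurs, the promoters were read from RefSeq (GRCm38.p6). The windows of 300 bases ran from 250 before to 50 after the start site. A window was found for 28 of the 36 genes. The core motif searched was a pair of GAAA separated by any 2 bases, on either strand (a pair of TTTC on the other), with overlapping matches counted. It was present in 16 of the 28 (57.1%), against 3.99% of 27025 genes with a window. The stretches of 7 genes with matches are given because they show how the matches lie in the genes whose counts are described later; capitals mark the matches, and each sequence runs 5′ to 3′ on the strand of its gene and ends before the start site.
Ifit1, chr19:34640755-34640843, plus strand: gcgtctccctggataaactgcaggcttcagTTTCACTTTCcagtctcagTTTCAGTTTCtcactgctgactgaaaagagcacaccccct
Ifit3, chr19:34583343-34583446, plus strand: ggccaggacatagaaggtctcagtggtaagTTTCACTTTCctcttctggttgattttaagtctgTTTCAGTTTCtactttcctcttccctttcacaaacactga
Ifit3b, chr19:34607739-34607842, plus strand: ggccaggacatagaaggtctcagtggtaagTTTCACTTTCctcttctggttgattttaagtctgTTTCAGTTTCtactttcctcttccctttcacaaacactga
Isg15, chr4:156200845-156200926, minus strand: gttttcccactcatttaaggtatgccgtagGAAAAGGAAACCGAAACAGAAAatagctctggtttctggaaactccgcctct
Oas3, chr5:120777695-120777764, minus strand: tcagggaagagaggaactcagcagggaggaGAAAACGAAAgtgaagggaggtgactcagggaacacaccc
Rsad2, chr12:26456533-26456602, minus strand: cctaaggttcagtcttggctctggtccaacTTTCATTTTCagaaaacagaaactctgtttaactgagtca
Bst2, chr8:71537557-71537632, minus strand: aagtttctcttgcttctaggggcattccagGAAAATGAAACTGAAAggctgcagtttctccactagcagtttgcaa
Isg15 had 3 overlapping matches in 1 run, and Ifit1, Ifit3, Ifit3b and Bst2 had 2 each. The Ifit3 and Ifit3b stretches were identical over their 104 bases. The 12 genes with a window but no match were Ifit2, Isg20, Oasl1, Oasl2, Cmpk2, Irf7, Xaf1, Herc6, Slfn1, Ifi35, Ifi44 and Samd9l. Mx1, Oas2, Usp18, Dhx58, Zbp1, Rtp4, Parp14 and Ifi27l2a had no window.

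Several of the genes lie near each other (GRCm38 coordinates). The 5 Ifit genes lie together on chromosome 19 between 34550694 and 34650009. The 5 Oas-family genes lie at separate places on chromosome 5. Oasl1 and Oasl2 are between 114896936 and 114937915, and Oas1a, Oas2 and Oas3 between 120730333 and 120907521. Rsad2 and Cmpk2 are side by side on chromosome 12. Reads that fit several genes equally cannot be placed, which touches near-identical copies. Of the 50-base words in the last 500 bases of its transcripts, Oas1a shared 56.1% with Oas1g, Slfn8 25.5% with Slfn9 and Slfn10-ps, and Ifit3 14.9% with Ifit3b, so the levels of these genes are uncertain. No word was shared for 26 of the 36.

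In all, 1174 control and 3321 anti-PD-1 cells with at least 1000 UMIs and at most 10% mitochondrial UMIs were kept, with medians of 3287 and 2763 UMIs per cell. The libraries shared 4 cell barcodes, against 5.29 expected by chance. Each cell was put into a class from its own marker genes, none of them an ISG of the set, and names ending in "-like" mean no more than that. T-cell-like cells were split by UMIs of Cd8a or Cd8b1, Foxp3 and Cd4. There were 68 control and 1067 anti-PD-1 CD8 T-cell-like cells, 82 and 159 regulatory T-cell-like, 333 and 565 NK-cell-like, 228 and 224 macrophage-like and 91 and 209 classical-monocyte-like cells. Markers not used for the gate were highest where their class was: in control cells Gzma stood at 6914 CPM in NK-cell-like and 243 CPM in CD8 T-cell-like cells, Trem2 at 417 CPM in macrophage-like and 83.7 CPM in classical-monocyte-like cells, and Plac8 at 9935 CPM in classical-monocyte-like and 2603 CPM in macrophage-like cells. The T-cell markers Cd3e (3.43 CPM) and Cd8a (2.57 CPM) were near 0 in control NK-cell-like cells. Haemoglobin RNA differed between the libraries, with Hbb-bs at 1.70 and 343 CPM over all cells, and its part in the differences was not tested. Of the 247 anti-PD-1 neutrophil-like cells, 114 had a UMI of Ly6c2, a gene of monocytes that CD8 T-cell-like cells also held (3297 CPM). Whether the class is mixed was not tested. Those 114 cells were deeper than the other 133, with medians of 2346 and 1596 UMIs.

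Levels are given in CPM, the share of a gene in all UMIs of the cells in question, scaled so that all genes add up to the same total in each group of cells. UMIs count transcript 3′ ends, so they were not divided by gene length. Over all kept cells the 36 genes summed to 5869.6 CPM (5801 to 5939) for the control library and to 6434 CPM (6389 to 6479.7) for the anti-PD-1 library. A large share of these UMIs came from 1 gene. Ifi27l2a, which encodes a small membrane protein of the Ifi27 family, gave 11501 of 27697 UMIs in control and 32053 of 77653 in anti-PD-1, 41.5% and 41.3%. Next came Isg15, a ubiquitin-like modifier, at 415 and 507 CPM, and Bst2 (tetherin), which holds enveloped viruses at the cell surface, at 414 and 363 CPM. Zbp1, a sensor of Z-form nucleic acid, stood at 262 and 377 CPM. Irf7, the transcription factor that amplifies interferon production, stood at 358 and 277 CPM, and Rtp4, a receptor transporter protein, at 239.9 and 291 CPM. The lowest, Oas2, had 8.69 and 8.62 CPM.

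**Figure D1:**
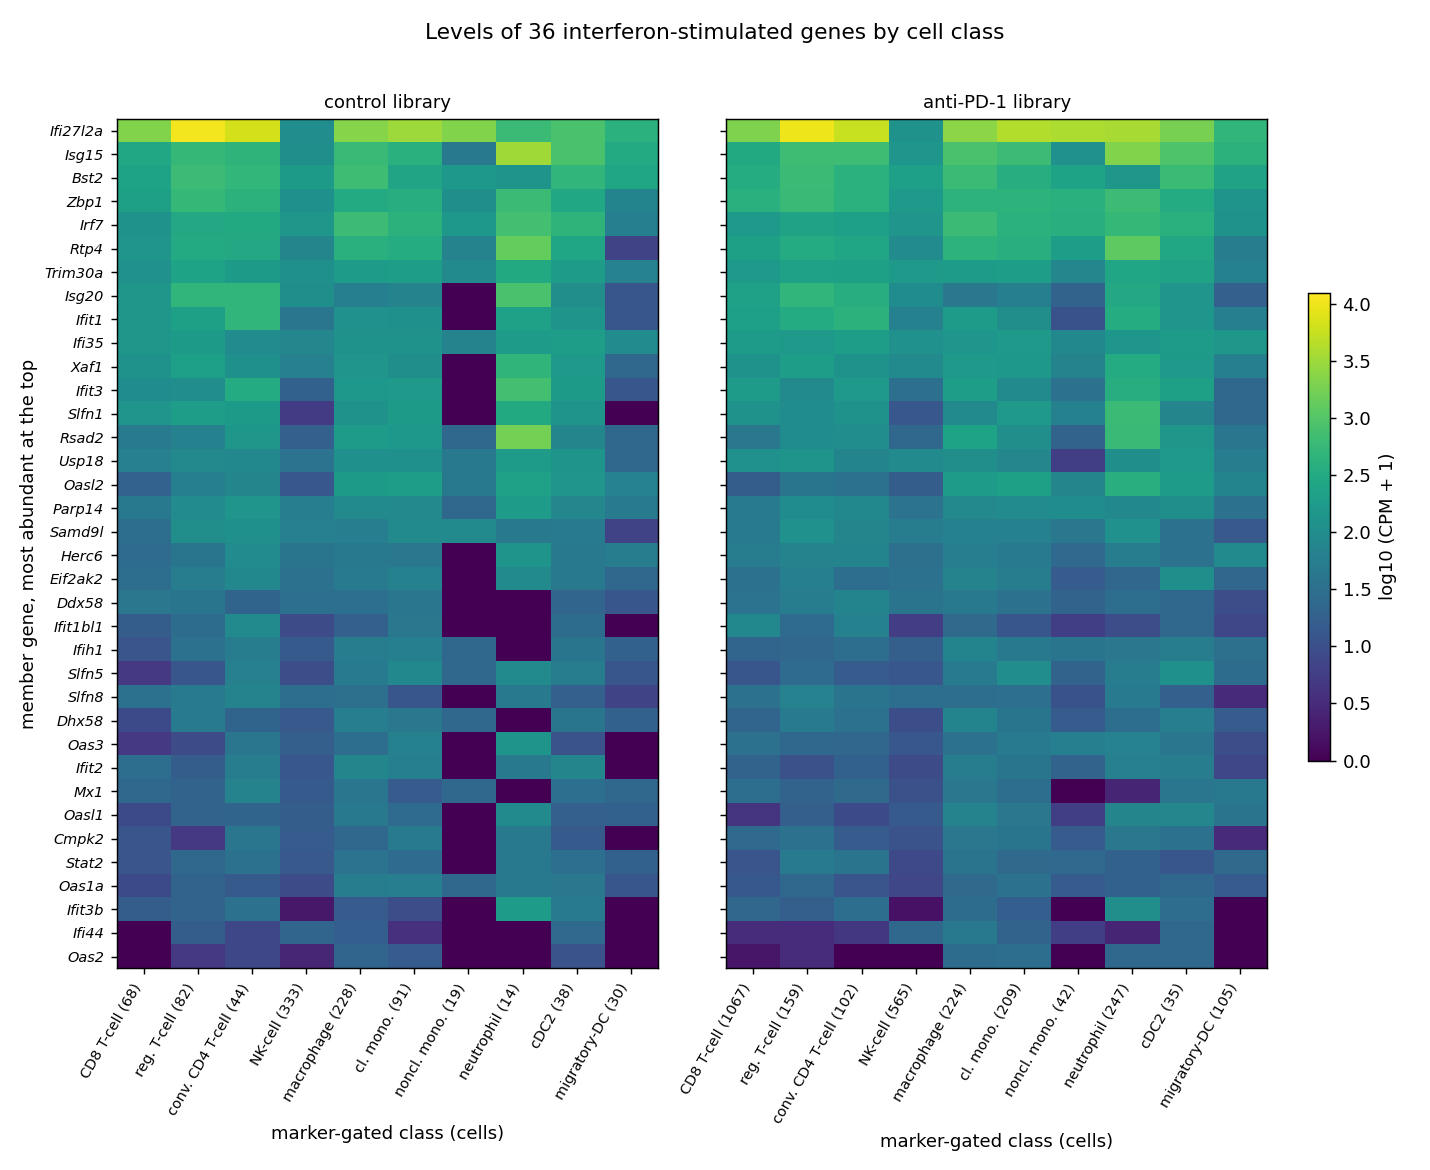
Level of each of the 36 genes (rows, ordered by UMIs over both libraries) in 10 marker-gated classes (columns, with their number of cells), as log10 of CPM + 1, with 1 panel per library. Ifi27l2a is brightest in regulatory and conventional CD4 T-cell-like cells and dark in NK-cell-like cells, and Isg15, Rtp4 and Rsad2 are bright in neutrophil-like cells.

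Classes differed far more from each other than the libraries did. Because Ifi27l2a can outweigh everything else, each sum is given for Ifi27l2a and for the other 35 genes separately. Regulatory T-cell-like cells had the most Ifi27l2a, with values of 10560.0 CPM (10169.5 to 10962; control) and 9743 CPM (9448 to 10044; anti-PD-1), and NK-cell-like cells the least, 101 CPM (83.8 to 121) and 123 CPM (107 to 141). Free RNA from barcodes with 10 to 50 UMIs, taken at its share in lymphocytes (1.60% and 1.98%), would give 24.4 and 57.9 CPM of Ifi27l2a, and the level in NK-cell-like cells is to be read beside that background. Ifi27l2a was detected in 97.6% (91.5 to 99.7) and 98.7% (95.5 to 99.8) of regulatory T-cell-like cells when each cell was thinned to 1000 UMIs, and in 100% of them before thinning. In NK-cell-like cells the thinned shares were 6.01% (3.71 to 9.12) and 10.3% (7.89 to 13.1), and 12.6% and 19.5% before thinning. Conventional CD4 T-cell-like cells (44 and 102 cells) came next with 6970 and 5660 CPM, and CD8 T-cell-like cells had 2082 and 1999.98 CPM.

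The other 35 genes ranked the classes in another order. Neutrophil-like cells were highest: the 14 control cells had 12445 CPM (11042 to 13977), the 247 anti-PD-1 cells 8962 CPM (8727 to 9203). Regulatory T-cell-like (4805 and 5079.9 CPM), conventional CD4 T-cell-like (5241 and 4402.5 CPM), macrophage-like (4824 and 5426 CPM), classical-monocyte-like (4054 and 4389 CPM) and cDC2-like cells (type 2 dendritic cells; 4485 CPM in 38 cells and 5091 CPM in 35) formed a middle group. CD8 T-cell-like cells stood at 2392 and 3346 CPM. NK-cell-like cells (1502 and 1786 CPM), migratory-DC-like cells (1298 CPM in 30 cells and 1912 CPM in 105) and nonclassical-monocyte-like cells (1017 CPM in 19 cells and 2212 CPM in 42) were the lowest in both libraries, leaving aside cDC1-, pDC- and B-cell-like cells, which numbered at most 11. In control, the intervals of regulatory T-cell-like (4543 to 5079), macrophage-like (4706 to 4945) and cDC2-like cells (4245 to 4735) overlapped, so their order is not resolved.

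**Figure D2:**
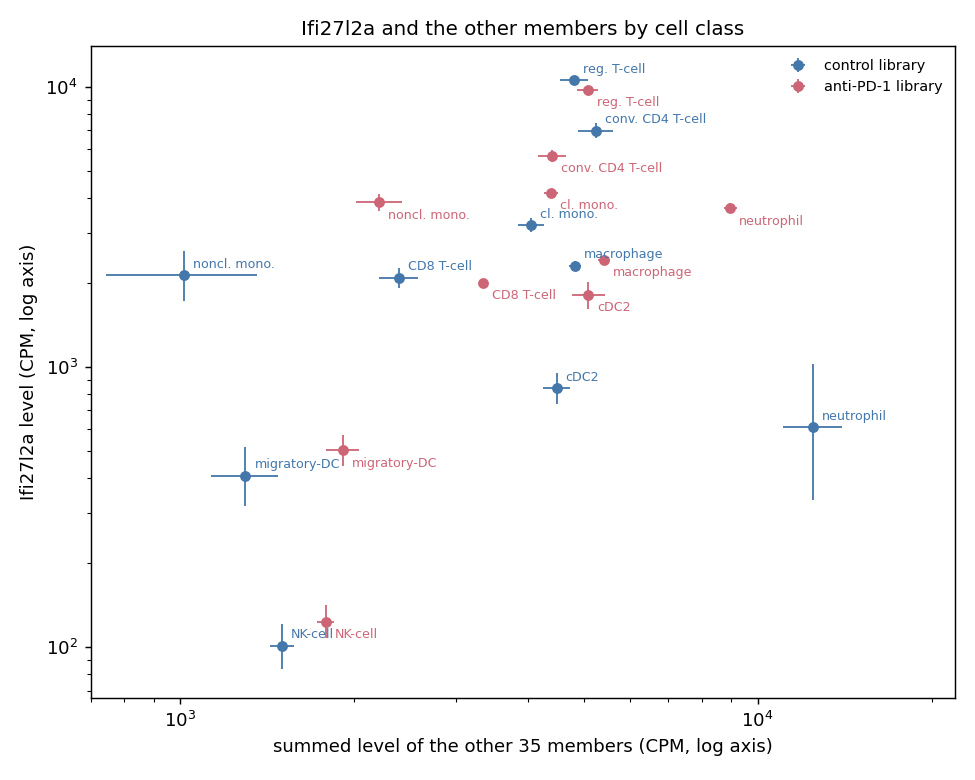
Summed level of the other 35 genes (horizontal, CPM, log axis) against the level of Ifi27l2a (vertical, CPM, log axis) for 10 classes in each library, with 95% Poisson intervals. Regulatory T-cell-like cells sit at the top, NK-cell-like cells at the bottom, and the 14 control neutrophil-like cells at the far right with 611 CPM of Ifi27l2a.

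The antiviral effectors did not share 1 profile over the classes. Ifit1, which binds viral RNA caps, stood in conventional CD4 T-cell-like cells at 505 CPM in control and 437 CPM in anti-PD-1, against 119 and 181 CPM in macrophage-like cells. Isg20, an exonuclease, stood at 505 and 507 CPM in regulatory T-cell-like cells, 830 and 292 CPM in neutrophil-like cells and 58.2 and 43.2 CPM in macrophage-like cells. Within the oligoadenylate synthase family, Oasl2 stood at 170 and 184 CPM in macrophage-like cells and at 12.02 and 14.99 CPM in NK-cell-like cells. Oas2 was at 20.7 and 26.7 CPM in macrophage-like cells, and had 0 UMIs in control CD8 T-cell-like cells, which allows up to 11.2 CPM, and in anti-PD-1 NK-cell-like cells, which allows up to 1.73 CPM. Oas3 was at 29.1 and 34.6 CPM in macrophage-like and at 3.73 and 34.0 CPM in CD8 T-cell-like cells. Rsad2 (viperin), an enzyme that makes a chain-ending nucleotide, was at 182 and 235 CPM in macrophage-like cells, 17.2 and 23.6 CPM in NK-cell-like cells, and 1747 and 571 CPM in neutrophil-like cells.

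Neutrophil-like cells had a composition of their own. Isg15 reached 3275 CPM (2576 to 4105) among the 14 control cells, against 2117 CPM (2003 to 2235) with anti-PD-1. Rtp4 stood at 1354 and 1208 CPM and Slfn1, a growth-regulating schlafen, at 306 and 631 CPM. Bst2, among the highest genes elsewhere, was only 131 and 148 CPM there. For Ifi27l2a the control value was 611 CPM (334 to 1026) and the anti-PD-1 value 3681 CPM (3530 to 3836). The 133 anti-PD-1 cells without a Ly6c2 UMI had 3002 CPM of Ifi27l2a and 10947 CPM of the other 35 genes, and the 114 with one had 4131 and 7646 CPM. With 14 control cells, of which 4 had a Ly6c2 UMI, no ratio was formed for this class. Plasmacytoid dendritic cells, the specialised interferon producers, numbered 2 cells per library, where Bst2, one of their surface markers, stood at 3255 CPM (2085 to 4843) and 4287 CPM (3172 to 5668).

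The sensors and regulators follow. Over the CD8, regulatory T, NK, macrophage and classical monocyte classes of the control, Ddx58, which encodes RIG-I, ranged from 30.04 CPM in NK-cell-like to 41.0 CPM in CD8 T-cell-like cells. Ifih1 (MDA5) was 53.6 and 69.9 CPM in macrophage-like cells and Dhx58 (LGP2) 56.6 and 69.1 CPM, against 11.2 and 21.1 CPM and 7.46 and 21.1 CPM in CD8 T-cell-like cells. Zbp1 was 536 and 570 CPM in regulatory T-cell-like cells, and Irf7 645 and 622 CPM in macrophage-like cells. Stat2, the subunit specific to type I and III interferon signalling, lay between 11.2 and 35.2 CPM in the same 5 classes of the control.

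The comparison of the 2 libraries asked how these levels stood with and without anti-PD-1 in each class. Ratios are log2 of anti-PD-1 over control CPM, formed where a class had 50 or more cells per library, and for genes with at least 50 UMIs over both. A gene is counted as called past 2-fold. In all T-cell-like cells pooled, the sum of the 36 genes was lower in anti-PD-1, at 9913 CPM in control and 6779 CPM (log2 -0.55, -0.58 to -0.52). Ifi27l2a made up this difference, with 6089 and 3187 CPM (-0.93), while the other 35 genes were at 3824 and 3592 CPM (-0.09, -0.14 to -0.04). The mix of T cells moved with it, since CD8 T-cell-like cells were 68 of 330 T-cell-like cells in control and 1067 of 1672 in anti-PD-1. With the 4 subclasses weighted alike, the pooled value was -0.10. Where 51.9% of all genes were higher, 11 of the 33 genes measured were higher and 22 lower. Among them 2 were over 2-fold higher (Ifit1bl1 1.07 and Oas3 1.05; 3.76% of all genes tested) and Oasl2 was over 2-fold lower (-1.19; 2.75% of all genes), 46.1 and 20.2 CPM. Usp18 stood at 0.77 and Ifit2 at -0.48.

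Within CD8 T-cell-like cells the set stood higher in anti-PD-1. Ifi27l2a was at -0.06 (-0.18 to 0.07), and the other 35 genes were at 2392 CPM (2210 to 2584) and 3346 CPM (3289 to 3404), a log2 ratio of 0.48 (0.37 to 0.60). Of 31 genes measured, 25 were higher and 6 lower, with a median of 0.42 against 0.13 over all 5701 genes tested, 59.2% of which were higher. Over 2-fold higher were 3 genes, where 5.28% of all genes were, and 0 were over 2-fold lower, where 2.61% of all genes were. These were Ifit1bl1, a divergent Ifit relative, at 14.9 and 79.9 CPM (2.42, 1.05 to 4.30), Oas3 at 3.73 and 34.0 CPM (1.60, 0.69 to 8.503, its 1 control UMI set to 3), and Cmpk2, a mitochondrial nucleotide kinase, at 11.2 and 24.2 CPM (1.11, -0.48 to 3.42). With 4, 1 and 3 control UMIs, all 3 passed the filter through the anti-PD-1 library. Among the more abundant genes, Zbp1 stood at 216 and 397 CPM (0.88, 0.50 to 1.28), Ifit3 at 97.0 and 185 CPM (0.93, 0.37 to 1.56), Rtp4 at 138 and 216 CPM (0.65, 0.17 to 1.16) and Isg15 at 276 and 309 CPM (0.16, -0.18 to 0.52). The lowest ratios were those of Ifit2 (-0.65), Oasl2 (-0.30) and Ddx58 (-0.20), all with intervals that include 0. The CD8 cells were not alike in the libraries, as 52 of 68 and 367 of 1067 lacked a Gzmk UMI. In these cells the other 35 genes were at 1835 and 2922 CPM (0.67, 0.52 to 0.83).

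Regulatory T-cell-like cells, with the highest Ifi27l2a in both libraries, differed little in their sums. Ifi27l2a was at -0.12 (-0.19 to -0.05) and the other 35 genes at 0.08 (-0.02 to 0.18). Of 17 genes measured, 9 were higher and 8 lower, where 54.3% of all genes were higher. Of the 17, 0 passed 2-fold in either direction (1.19% of all genes did upward and 0.972% downward). The median was 0.0033 against 0.037 for all genes. Slfn1 was lowest, at 191 and 99.0 CPM (-0.95, -1.58 to -0.33), followed by Irf7 at -0.37 and Ifit3 at -0.15. Rsad2 (0.69), Ifit1 (0.66, 0.20 to 1.13) and Usp18 (0.65) were highest. The other T-cell-like cells had Ifi27l2a at 5505 and 4438 CPM (-0.31) and the rest at 0.04 (-0.06 to 0.13). They held no CD8, Cd4 or Foxp3 UMI, or a CD8 UMI beside one of Cd4 or Foxp3. Of 19 genes measured in them, 10 were higher and 9 lower, where 57.2% of all genes were higher. Of the 19, 0 passed 2-fold (1.88% of all genes did upward and 0.341% downward). Their highest ratios were those of Usp18 (0.93), Ifit1bl1 (0.90) and Herc6 (0.62), and their lowest beside Ifi27l2a those of Isg20 (-0.23) and Irf7 (-0.17).

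NK-cell-like cells were slightly higher as a whole, at 1502 and 1786 CPM for the 35 genes (0.25, 0.16 to 0.34), and 15 of 21 genes measured were higher (63.6% of all genes were). Usp18, the protease that removes Isg15 from proteins and dampens the type I receptor, stood out at 35.2 and 87.7 CPM (1.32, 0.81 to 1.85). It was the only gene of the set over 2-fold higher in this class, as were 1.12% of all genes, and 0 were over 2-fold lower (0.552% of all genes). Ifit3 (0.76) and Ifit1 (0.66) followed. Parp14, an ADP-ribosyltransferase, was lowest at 56.6 and 35.8 CPM (-0.66, -1.19 to -0.14), then Herc6 (-0.28), the mouse ligase that attaches Isg15, and Isg20 (-0.15).

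**Figure D3:**
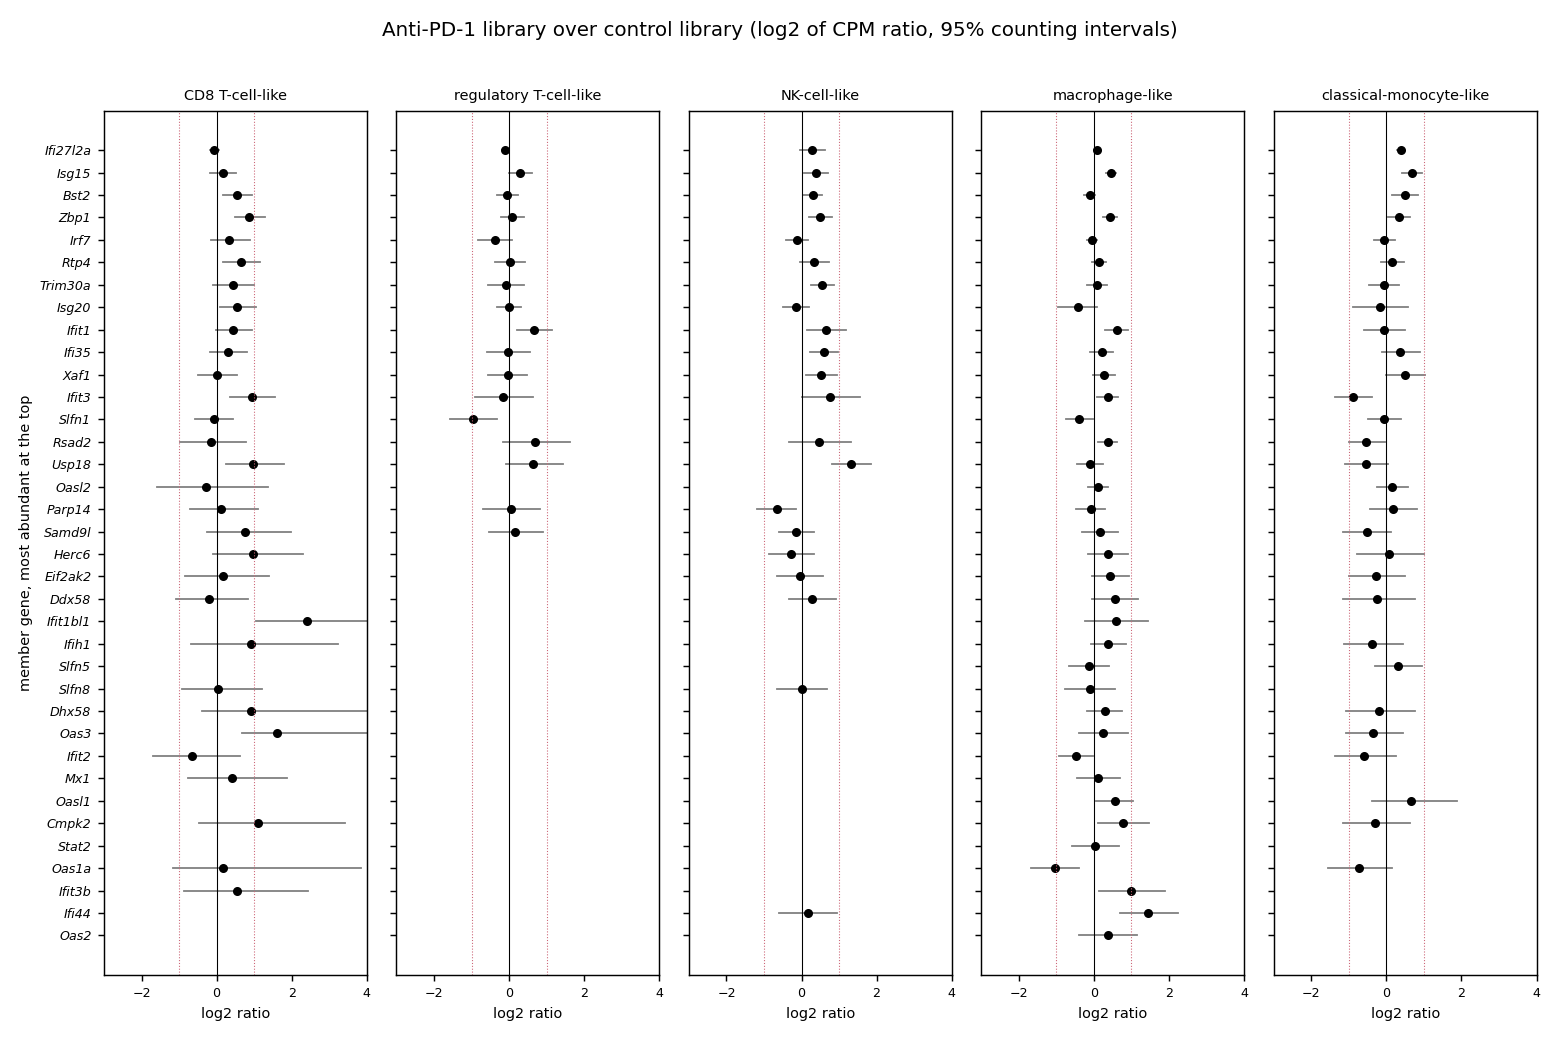
Log2 ratio of anti-PD-1 over control CPM for each gene (rows) in 5 classes (panels), with 95% counting intervals cut off at the right edge (4) and dotted lines at 2-fold, for genes with at least 50 UMIs over both libraries. Most points lie inside the dotted lines, and the abundant genes at the top have the narrow intervals.

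In macrophage-like cells, where all 36 genes were measured, 26 were higher and 10 lower, and 57.1% of all genes were higher. The sum of the 35 genes was 4824 CPM (4706 to 4945) and 5426 CPM (5299 to 5556), a log2 ratio of 0.17 (0.12 to 0.22), and the median over the 36 was 0.23 against 0.06 for all genes. Ifi44, an interferon-induced antiviral protein, was over 2-fold higher at 16.1 and 44.0 CPM (1.45, 0.71 to 2.25), where 1.91% of all genes were. Ifit3b was at 13.8 and 27.5 CPM (0.997), Cmpk2 at 0.78, Ifit1 at 0.61 (0.31 to 0.91) and Isg15 at 608 and 830 CPM (0.45, 0.32 to 0.58). Oas1a was the 1 gene over 2-fold lower, at 51.3 and 25.1 CPM (-1.03, -1.68 to -0.40), where 1.48% of all genes were. Its near copy Oas1g, which is not of the set, was lower too, at 26.8 and 9.43 CPM. Ifit2 (-0.48) and Isg20 (-0.43) were the next lowest.

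Classical-monocyte-like cells gave a value that rested on few cells. Pooled, Ifi27l2a was at 3205 and 4171 CPM (0.38, 0.29 to 0.48) and the other 35 genes at 4054 and 4389 CPM (0.11, 0.03 to 0.20). Of 29 genes measured, 12 were higher and 17 lower, where 58.1% of all genes were higher. Of the 29, 0 were over 2-fold in either direction (4.47% of all genes upward, 2.25% downward). Isg15 was highest at 401 and 645 CPM (0.68, 0.42 to 0.96), then Oasl1 (0.66) and Bst2 (0.50), and Ifit3 lowest at 162 and 87.5 CPM (-0.89, -1.37 to -0.39), then Oas1a (-0.72) and Ifit2 (-0.58). A single control cell of 4537 UMIs, however, carried 219 UMIs of the 35 genes, 15.6% of those of all 91 cells, and 30 of the 56 Ifit3 UMIs. Without the highest cell of each library the 35 genes were at 3467 and 4292 CPM (0.31, 0.22 to 0.40), and Ifit3 was at 76.1 and 83.4 CPM (0.13, -0.51 to 0.82). In the other 4 classes the same step left the sum of the 35 genes inside its interval.

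The monocytes also differed in make-up, which was looked at after the values above were seen, with S100a8 at 14.4 CPM in control and 2274 CPM in anti-PD-1, and 85 of 91 and 117 of 209 cells had no S100a8 or S100a9 UMI. In those cells the 35 genes were at 4062 and 7042 CPM (0.79, 0.70 to 0.89). Of 22 genes measured there, 22 were higher, with a median of 0.71 against 0.08 for all genes, of which 56.7% were higher. Isg15 stood at 392 and 1226 CPM (1.65, 1.36 to 1.94), Slfn5 at 70.9 and 157 CPM (1.15) and Xaf1, a pro-apoptotic factor, at 111 and 223 CPM (1.01). These 3 were over 2-fold higher, where 5.11% of all genes were, and Ifit3 was at 0.11 (-0.40 to 0.63). The single high control cell described above remained among the 85, and values without it were not computed. Deeper cells are more likely to hold an S100a8 or S100a9 UMI, and depth was not matched in this split. Barcodes with 10 to 50 UMIs held S100a8 at 342 CPM in control and 5094 CPM in anti-PD-1, and the part of free RNA in this split was not tested.

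Over the 5 classes (CD8, regulatory T, NK, macrophage and classical monocyte), 16 genes were measured in all. Isg15 (0.16 to 0.68), Zbp1 (0.09 to 0.88) and Rtp4 (0.02 to 0.65) were higher in 5 of 5, and 0 of the 16 were lower in 5 of 5. Of all 1607 genes measured in the 5 classes, 18.4% were higher in 5 of 5 and 5.16% lower, so 3 of 16 is near the background. The interval of Isg15 included 0 in CD8 T-cell-like cells, that of Zbp1 in regulatory T-cell-like cells, and that of Rtp4 in every class of the 5 but the CD8 one. Slfn1 was lower in the 4 classes where it was measured (-0.95 to -0.06), while in NK-cell-like cells, where it had too few UMIs to be counted, it stood at 4.29 and 12.1 CPM (1.497, 0.05 to 3.26). Ifit2 was lower in 3 of 3 (-0.65 to -0.48), with an interval that excluded 0 in macrophage-like cells only. Irf7 was lower in 4 of 5, with intervals that all included 0. Without the highest cell of each library, classical monocytes had Ifit2 at -0.08 and Irf7 at 0.20. The share of all genes lower in as many classes was not counted, so these counts of classes for Slfn1, Ifit2 and Irf7 have no background. Pooled, all monocyte- and macrophage-like cells had Ifi27l2a at 0.41 and the rest at 0.05 (0.01 to 0.09). The mix of this pool moved with it: macrophage-like cells were 228 of its 338 control cells and 224 of its 475 anti-PD-1 cells. Ifi27l2a was at 0.07 within macrophages and 0.38 within classical monocytes, and the part of the mix was not tested. The pool had Ifi44 (1.22), Ifit3b (0.71) and Oas2 (0.44) highest and Oas1a (-0.88), Ifit2 (-0.64) and Usp18 (-0.39) lowest. Of the 36, Ifi44 alone passed 2-fold upward (2.67% of all genes) and none downward (2.01%).

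Cell-to-cell spread was wide inside each class. Spread is given as the extra coefficient of variation (SD over mean) of a cell's share of UMIs in the 35 genes, after the part due to counting is removed. It was 1.27 (1.07 to 1.54) and 1.15 (1.10 to 1.204) in CD8 T-cell-like cells, 1.27 (1.17 to 1.39) and 1.17 (1.10 to 1.25) in NK-cell-like cells, 0.97 and 0.95 in macrophage-like cells, and 0.83 and 0.90 in regulatory T-cell-like cells. It was 1.48 (1.29 to 1.74) in control classical-monocyte-like cells, and 0.91 (0.78 to 1.08) without the single cell described above. The 0.91 lies outside the first interval, since these intervals take the deviations between cells as near normal and can be too narrow. In anti-PD-1 monocytes the extra variation was 1.09 (0.99 to 1.21), or 1.04 without the highest cell. For Ifi27l2a alone it was 0.69 (0.59 to 0.82) and 0.59 (0.53 to 0.68) in regulatory T-cell-like cells, 0.64 and 0.54 in classical monocytes, 0.97 and 0.82 in macrophage-like and 1.28 and 1.23 in CD8 T-cell-like cells. It was 0.69 and 0.98 in conventional CD4 T-cell-like and 1.73 and 1.11 in neutrophil-like cells.

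**Figure D4:**
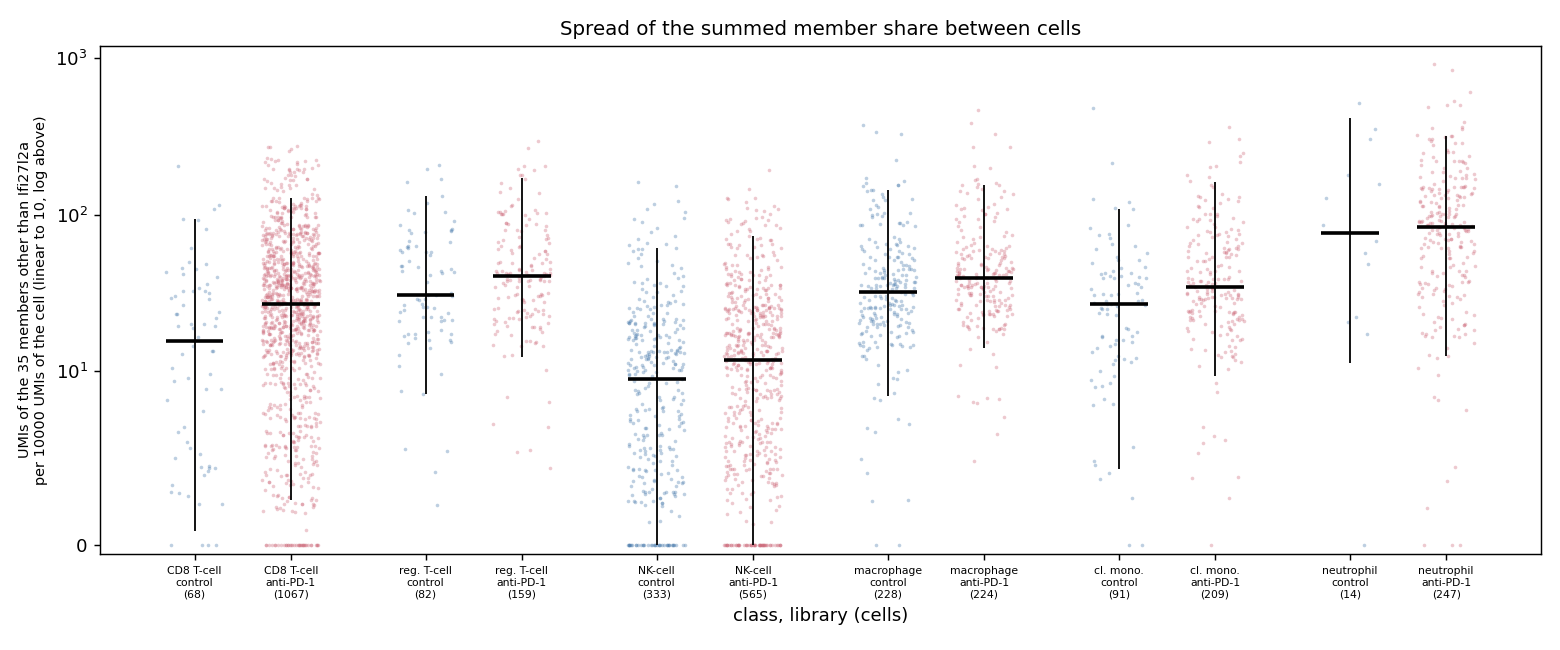
Each point is a cell, plotted by its UMIs of the 35 genes other than Ifi27l2a per 10000 UMIs (linear to 10, log above) in 6 classes and both libraries. Thick bars are medians and thin lines run from the 5th to the 95th percentile, which in control CD8 T-cell-like cells is 0.819 to 93.7, and the single control monocyte at 483 stands apart from the next at 214.

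The median cell therefore describes little of the class. In CD8 T-cell-like cells the median was 15.5 UMIs of the 35 genes per 10000 in control and 26.8 in anti-PD-1, while the 95th percentiles were 93.7 and 127. In NK-cell-like cells the median was 9.56 and 11.8 and the 95th percentile 61.0 and 72.7, which is 6.38 and 6.16 times the median. Regulatory T-cell-like cells had medians of 30.7 and 40.5, and their lowest cells still had 2.29 and 4.40 UMIs per 10000. At 1000 UMIs per cell, the tenth of cells with the most UMIs of the 35 genes held 48.5% of them in control NK-cell-like and 44.1% in control CD8 T-cell-like cells, and 32.1% in anti-PD-1 regulatory T-cell-like cells.

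To see whether single cells carried several of the genes, cells thinned to 1000 UMIs were counted by how many of the 35 genes were detected. All kept cells reach that depth, so none was left out. Among CD8 T-cell-like cells, at least 3 of the 35 were detected in 30.9% (20.2 to 43.3; control) and 46.7% (43.6 to 49.7; anti-PD-1). The same shares were 45.1% (34.6 to 55.8) and 63.2% (56.2 to 69.7) of classical-monocyte-like, 53.1% (46.4 to 59.7) and 68.3% (61.8 to 74.3) of macrophage-like, 56.1% and 61.6% of regulatory T-cell-like, and 16.5% (12.7 to 20.9) and 21.8% (18.4 to 25.4) of NK-cell-like cells. With at least 5 required, the share was highest in neutrophil-like cells, 57.1% (28.9 to 82.3) and 60.3% (53.9 to 66.5). It was 19.8% (12.2 to 29.4) and 35.9% (29.4 to 42.8) in classical-monocyte-like cells, 26.8% (21.1 to 33.0) and 37.1% (30.7 to 43.7) in macrophage-like cells, and 13.2% (6.23 to 23.6) and 24.9% (22.4 to 27.6) in CD8 T-cell-like cells. Regulatory T-cell-like cells had 32.9% and 32.1%, and NK-cell-like cells 7.21% (4.67 to 10.5) and 8.496% (6.33 to 11.1). With at least 5 required, the intervals of the 2 libraries overlapped in each of these 6 classes, barely so in classical monocytes. With at least 3, they did not overlap in CD8 T-cell-like, macrophage-like and classical-monocyte-like cells. Of the 19 control nonclassical-monocyte-like cells 0 had at least 5, which allows up to 17.6%, against 9.52% (2.66 to 22.6) of the 42 anti-PD-1 ones. Before thinning the shares with at least 5 were 69.2% and 89.5% in classical monocytes, 80.3% and 87.1% in macrophage-like cells, 47.1% and 64.5% in CD8 and 28.2% and 32.4% in NK-cell-like cells. Free RNA held the 36 genes at 5094 and 6875 CPM, and its share in lymphocytes would give 57.3 and 78.1 CPM of the 35 genes, below the 1502 and 1786 CPM of NK-cell-like cells.

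**Figure D5:**
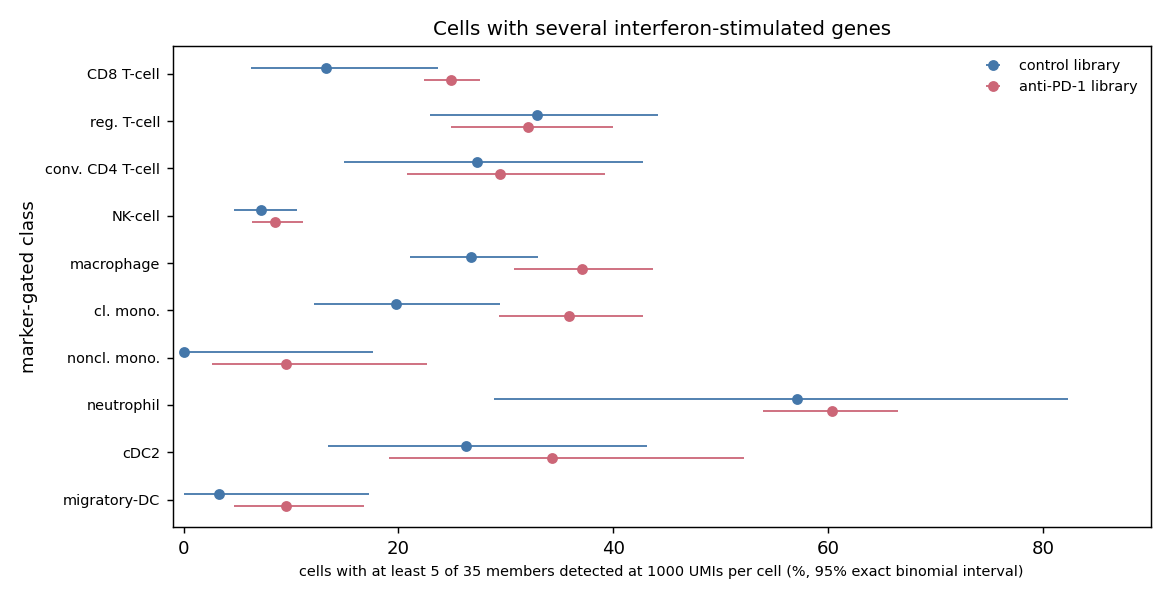
Share of cells in which at least 5 of the 35 genes other than Ifi27l2a were detected at 1000 UMIs per cell (horizontal, %), by class (rows) and library (colour), with exact 95% binomial intervals. Neutrophil-like cells lie near 60% in anti-PD-1, NK-cell-like and migratory-DC-like cells below 10%.

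The genes varied together from cell to cell. Between cells of 1 class at 1000 UMIs, the summed UMIs of the 10 Ifit and Oas genes and those of the other 25 correlated with r from 0.40 in the 68 control CD8 T-cell-like cells to 0.78 in the 247 anti-PD-1 neutrophil-like cells, over 13 classes and libraries with enough cells. These cells share their library, so the values are descriptions with no test. The variance of the summed 35 genes was between 2.32 and 4.76 times the sum of the single genes' variances, where independent genes would give a ratio of 1. The 4.76, with an r of 0.76, was that of control classical-monocyte-like cells with the single high cell kept. The part of that cell was not tested. Ifi27l2a and the 35 others correlated with r = 0.62 and 0.40 in regulatory T-cell-like cells, 0.32 and 0.37 in CD8 T-cell-like cells and 0.52 in anti-PD-1 conventional CD4 cells. For macrophage-like cells r was 0.24 (control) and 0.05 (anti-PD-1), for classical-monocyte-like cells 0.25 and 0.08. It was 0.09 in anti-PD-1 neutrophil-like cells, and 0.01 and 0.03 in NK-cell-like cells, where few cells had Ifi27l2a.

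The interferons themselves were at the limit of detection. None of 18 type I interferon genes had a UMI in the control cells, which allows up to 0.636 CPM per gene, and 1 UMI of Ifnz was seen in anti-PD-1. Ifnl2 and Ifnl3 had 0 UMIs in both. Over all cells, type II interferon (Ifng) stood at 72.1 and 233 CPM (1.69, 1.53 to 1.86), but at 731 and 584 CPM within CD8 T-cell-like cells (-0.32, -0.54 to -0.11).

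Receptor and signalling genes went both ways in macrophages and monocytes pooled. The receptor chains Ifnar1 (79.5 and 61.4 CPM, -0.37) and Ifnar2 (178 and 122 CPM, -0.54, -0.78 to -0.31) were lowest. Irf9 was at 58.3 and 51.5 CPM (-0.18), Tyk2 at 0.52 and the interferon gamma target Irf1 at 0.93 (0.68 to 1.17). Of the negative regulators Socs1, Socs3, Ptpn6 and Pias1, and Uba7 listed with them, all 5 were higher, where 55.8% of all genes were. They ranged from Pias1 (0.10) and Socs3 (0.10) to Ptpn6 (0.58) and Socs1, which blocks Jak kinases (51.2 and 132 CPM, 1.37). Socs1 was the 1 past 2-fold, as were 2.67% of all genes. Within macrophage-like cells all 5 were higher, while within CD8 T-cell-like and within NK-cell-like cells 2 were higher and 3 lower. Among 8 measured sensors and adaptors, Tbk1 (-0.21) and Tmem173, which encodes STING (-0.13), were lowest and the DNA sensor Mb21d1 (0.90) and the kinase Ikbke (1.08, 0.38 to 1.84) highest, the last being the 1 past 2-fold. Within macrophage-like cells, 4 of 6 measured sensors and adaptors were lower (median -0.073), and none passed 2-fold there or in classical monocytes. Ikbke had too few UMIs for a ratio in either, at 13.8 and 23.6 CPM in macrophage-like and 8.66 and 30.6 CPM in classical-monocyte-like cells.

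Genes that interferon gamma induces stood higher in the same cells. All 10 measured GTPases of the Gbp and Irg families were higher, with a median of 0.72 against 0.055 for all genes, of which 55.8% were higher. Over 2-fold higher were 4 of the 10, where 2.67% of all genes were. They ranged from Gbp3 (0.41) and Gbp7 (0.50) to Gbp2 (1.44) and Gbp5 (1.55). Of 26 further inducible genes outside the set, 13 were higher and 13 lower (median 0.02). Cxcl10, a chemokine that recruits T cells, was highest at 277 and 1146 CPM (2.05, 1.91 to 2.19) and the 1 over 2-fold higher, followed by Cxcl9 (0.92). Oas1g (-1.28), the 1 over 2-fold lower, and Trim30d (-0.46) were lowest. In CD8 T-cell-like cells, 22 of 23 measured inducible genes and 11 of 11 GTPases were higher, where 59.2% of all genes were, with medians of 0.66 and 0.74 against 0.13 for all genes. The UMI filter leans toward genes high in anti-PD-1 in this class, as described above. The libraries behind all of these values are the same 2, so the lists are not independent of each other.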

How the data were processed

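The 2 libraries, made with 10x Genomics 3′ chemistry from sorted CD45+ cells, were 1 control and 1 anti-PD-1. The authors deposited unnormalised UMI counts per gene and barcode for 27998 genes and 737280 barcodes, made with Cell Ranger 2.1 on mm10 per the submitters' processing notes. The matrices held 5203415 and 13717817 UMIs, of which 90.7% and 88.0% lay in the kept cells. The 36 genes and all other gene lists were chosen with earlier results of these data known.

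Cells took the class with the highest mean log marker level, given at least 2 detected markers. Cells with at least 3 markers of a second lineage scoring at least 0.5 of the first (5 control and 77 anti-PD-1) were left out, which was the only treatment of doublets, and 63 and 127 cells had no class. The T-cell markers Trac and Trbc2 and the inducible genes Oas1b and Mx2 were not used, as no row bears these symbols. UMIs were summed per class and library. Intervals are 95%: exact Poisson for CPM, conditional binomial for ratios, Clopper-Pearson for shares and chi-square for the extra variation. A gene under 3 UMIs in a library was set to 3 for its ratio. Thinning drew 1000 UMIs per cell without replacement, with a fixed seed. UMIs are not independent of the cell they come from, so the intervals of CPM and ratios cover counting error only. Those of shares and of extra variation treat cells as independent draws, the latter with near-normal deviations. Genes with full values are the 6 most abundant ones, the 3 highest and 3 lowest ratios of each class, and the ligands, receptors, Irf9, Cxcl10 and extremes of the other lists; further genes named by role, and Slfn5 and Xaf1, were chosen after their values were seen. Scripts were tested on simulated counts. Coordinates are from GENCODE M21 (GRCm38), and sequences from RefSeq. Python 3.11.15, numpy 2.4.6, scipy 1.17.1 and pandas 2.3.3 were used. Alternatives tried were UMI minimums of 500 and 2000, a 5% mitochondrial limit, thinning, subtraction of free RNA, other gates and gene filters, and other sums.

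Monocytes without an S100a8 or S100a9 UMI, CD8 cells without a Gzmk UMI, equal weights for T subclasses and leaving out the highest cell of each library were chosen after seeing the data, as was the count of cells with at least 5 genes. For that rule, 1 gene of the signalling list is not reported here.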

Additional observations from a re-analysis of the deposited data

Results flagged for a closer look

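For 3 genes, the counting interval of the ratio lay above 0 in 1 class and below 0 in another. With 1 library per group, none of these differences between classes was tested. For Ifit3, CD8 T-cell-like cells (log2 0.93) and classical-monocyte-like cells (-0.89) went opposite ways, a difference of 1.82. The monocyte value rests on 1 control cell with 30 of 56 Ifit3 UMIs, and without the highest cell of each library it was 0.13. For Rsad2, macrophage-like cells (0.37) and classical-monocyte-like cells (-0.53) differed by 0.90, and the monocyte value was -0.42 (-0.99 to 0.17) without the highest cells. For Ifi27l2a, classical-monocyte-like cells (0.38) and regulatory T-cell-like cells (-0.12) differed by 0.50, and without the highest cells the values were 0.39 and -0.08.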

How the results depend on the processing

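No paired analysis was possible because each group has 1 library. No value here has replicate error, so the limits are counting depth, class make-up and single cells; 82 regulatory and 68 CD8 T-cell-like control cells leave wide intervals for single genes. The log2 ratio of the sum of all 36 genes was -0.55 in T-cell-like, 0.26 in CD8, -0.05 in regulatory T, 0.25 in NK, 0.14 in macrophage-like and 0.24 in classical-monocyte-like cells. Under the alternatives, 55 recomputed sums kept their sign and stayed within the counting interval. The others are given next, and their causes were not tested. Without Ifi27l2a the ratios were -0.090 in T, 0.48 in CD8, 0.080 in regulatory T and 0.11 in monocytes. Without the 5 most abundant genes of a class they were -0.051 in T, 0.46 in CD8, 0.072 in regulatory T, 0.22 in macrophages and -0.012 in monocytes. Both values in regulatory T cells and the last in monocytes changed sign. With each cell thinned to 1000 UMIs they were -0.38 in T, 0.43 in CD8 and 0.47 in monocytes, and with each cell weighted alike -0.36, 0.46 and 0.43. Centred on the median of all genes, they were 0.13 in CD8, 0.14 in NK, 0.083 in macrophages and 0.15 in monocytes. In T-cell-like cells a minimum of 2000 UMIs gave -0.70 and a gate of 3 markers -0.74. Chosen after seeing the data, equal weights for the T subclasses gave -0.10, monocytes without an S100a8 or S100a9 UMI 0.61 (high control cell kept), and monocytes without the highest cell of each library 0.35. The counts of genes over 2-fold higher depend on the limits. Past 1.5-fold, higher were 4 in T, 11 in CD8, 3 in regulatory T, 4 in NK, 4 in macrophages and 2 in monocytes, and lower were 2 in T, 1 in CD8, 1 in regulatory T, 1 in NK and 3 in monocytes. With at least 20 UMIs, over 2-fold higher were 1 in regulatory T, 2 in NK and 3 in monocytes, and lower 2 in T and 1 in monocytes. With at least 100 UMIs, macrophages had 0 higher and 0 lower. The shares of all genes past these other limits are not given. These counts therefore show only how the calls depend on the limits. The extra variation between cells for all 36 genes was 1.03 in anti-PD-1 CD8 cells, 0.93 when thinned and 1.15 without Ifi27l2a. Without Ifi27l2a it went from 0.69 to 0.83 and 0.59 to 0.90 in regulatory T (control, anti-PD-1), from 0.84 to 0.97 and 0.72 to 0.95 in macrophages, and from 0.93 to 1.48 and 0.64 to 1.09 in monocytes.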
